A study of Mus musculus with 34 samples.

Results

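The comparison described here set bone marrow-derived macrophages of Tet2 knockout mice (Tet2KO) against those of WT mice, both after vehicle, with 3 libraries for each genotype. The 6 libraries were taken by their genotype and treatment labels, with no measured value in the choice, out of 34 samples in the series. Tet2KO mice were Tet2fl/fl;Vav-Cre and WT mice carried Vav-Cre without a floxed allele, so the recombinase was common to both groups. Vav-Cre is active in blood-forming cells and their progeny, so marrow cells of every blood lineage could carry the deletion and not macrophages alone. Marrow of mice aged 10 to 14 weeks was grown for 6 days with 10 ng/ml of the macrophage growth factor M-CSF, rested for 24 h after replating and kept for 24 h with vehicle. Further groups were compared to place the result: Tet2KO and WT with 200 mg/dL low-density lipoprotein (LDL), Tet2KO and WT with vehicle in batch 1, and Dnmt3aKO (Dnmt3afl/fl;Vav-Cre) with vehicle, all with 3 libraries a group. The fit of the main set, all libraries outside batch 1, also held Dnmt3aKO with LDL and Jak2VF with vehicle and with LDL. Its estimate of spread came from all 24 libraries, so these groups bear on every p-value of the main set. The fit of batch 1 likewise held its LDL groups. Batch 1 is a set of libraries so named in the labels, with a table of its own, and was fitted apart. Strain and sex are not among the labels, and neither is a statement that each library is from an animal of its own, so p-values measure the spread between libraries, which may be technical.

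TET2 is an enzyme that oxidises methylated cytosine in DNA, the first step by which methylation is removed, and it acts mainly at enhancers of blood cells. Its loss is among the frequent mutations of clonal hematopoiesis, in which 1 mutant stem cell supplies a growing share of blood cells. Macrophages without TET2 are known for a raised release of inflammatory cytokines, and stem cells without it for a shift towards the myeloid lineage.

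The 6 libraries held 24105237 to 37504702 counts, the lowest in Tet2KO library 2. Levels are given as CPM, counts scaled to the size of each library, and changes as log2 fold changes of Tet2KO over WT, n = 3 libraries a group. Each has a standard error (SE) derived from the edgeR quasi-likelihood test as described with the processing. A gene was called where its p-value, adjusted by Benjamini-Hochberg over all genes tested, was under 0.05. The first principal component of the 6 libraries, with 42.6% of the variance, set the 3 Tet2KO libraries apart from the 3 WT libraries, and the second, with 19.2%, ran between WT libraries 1 and 3. Ribosomal protein genes summed to 26628 to 30219 CPM in Tet2KO and 26700 to 37857 CPM in WT, with the highest sum in WT library 1. Transcripts of the macrophage identity list summed to 27048 to 28529 CPM in Tet2KO and 27592 to 34206 CPM in WT. Lyz2 (lysozyme) led it, with 18437, 17493 and 18157 CPM in Tet2KO and 23478, 20139.8 and 17888 CPM in WT. Adgre1, which encodes the macrophage marker F4/80, was at 1226, 1198 and 1255 CPM in Tet2KO and 1186, 1160.3 and 1228 CPM in WT, with overlapping groups. LDL libraries Tet2KO 3 and WT 3 stood apart by the brain transcript Gfap, at 4.26 and 2.72 CPM against 0.319 CPM or less in the other LDL libraries of both genotypes, and LDL results are also given without this pair. Xist was at most 0.315 CPM and 4 Y-linked genes summed to at least 154 CPM in every library of the main set.

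Tet2 itself (ENSMUSG00000040943, GRCm38 chromosome 3, 133463679 to 133545139) had 32.8, 38.6 and 32.9 CPM in Tet2KO and 19.9, 28 and 32.2 CPM in WT. The Tet2KO libraries were the higher ones without overlap, at a log2 fold change of 0.38 ± 0.29 that was not called (edgeR adjusted p = 0.568). Counts were summed over the whole gene, floxed exon or not, and so cannot check the genotype label. Its paralogs Tet1 (0.33 ± 0.41) and Tet3 (0.33 ± 0.21) and the methyltransferase Dnmt3a (0.00 ± 0.15) were not called either (edgeR adjusted p = 0.733, 0.471 and 0.999). Of 24 genes of the DNA methylation machinery 0 were called by edgeR (4 had an unadjusted p under 0.05 and DESeq2 called 1), with a median log2 fold change of -0.01. Leaving out single libraries turned the sign of the Dnmt3a value, which lies at 0.

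Of 19444 genes tested, 1064 were called (5.47%), 536 of them higher in Tet2KO (2.76%) and 528 lower (2.72%), beside a median of -0.01 over all genes tested. The rises were the larger changes: their median size was 0.82 on the log2 scale with 219 over 2-fold and 48 over 4-fold, against 0.53, 98 and 32 for the falls. Of the called genes 1060 had Tet2KO and WT libraries that did not overlap, as had 5294 of all genes tested (27.2%). Lack of overlap in a called gene is therefore given below as description only. The number of called genes was 644 without Tet2KO library 2 and 643 without WT library 2. In all, 509 of the 1064 genes (47.8%) were called in the same direction with each of the 6 libraries left out in turn. A test against a minimum change of 1.5-fold was passed by 146 genes. By the rule described with the processing, the 10 largest rises were Ifi208, Rpl34-ps2, Rpl34-ps1, Gdf3, Adgre4, Igkv14-126, Xlr3b, Ighv11-2, Alpk1 and Serpina3b. The 10 largest falls were Ighg2b, Olfm4, Retnlg, Ngp, Ltf, Camp, Cd177, S100a9, Chil3 and Mid1-ps1. Counts of called list members below are to be read beside the shares of all genes, with vehicle 2.76% higher and 2.72% lower. Those shares were 1.28% and 1.48% with LDL, 0.73% and 1.16% in batch 1, and 4.08% and 4.7% against Dnmt3aKO.

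**Figure D1:**
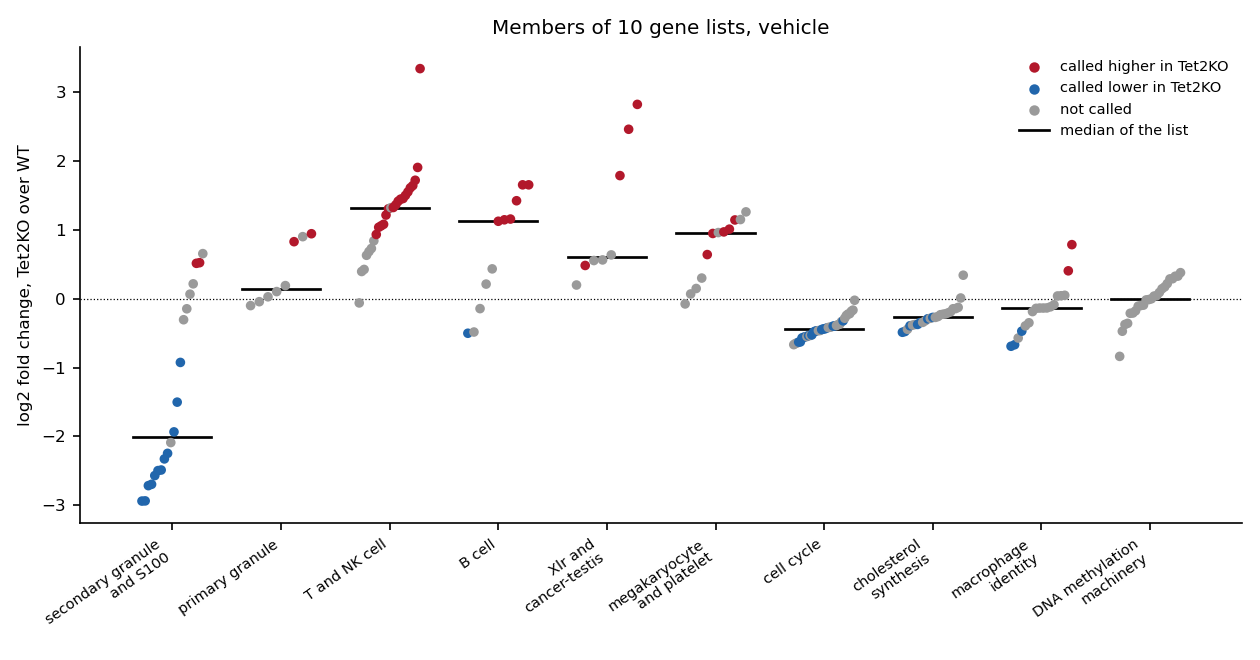
Log2 fold change of Tet2KO over WT with vehicle (y axis) for every tested member of 10 gene lists (x axis), 1 point a gene, coloured by its call, with the median of each list as a bar. Secondary granule genes sit lowest (median -2.01), T and NK cell genes are the highest as a list (median 1.32), and every cell cycle gene lies below 0.

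The falls were led by proteins of neutrophil secondary granules and the S100 alarmins. Neutrophils fill their granules in order as they mature: primary granules with Mpo and serine proteases come first, at the promyelocyte stage, and secondary and tertiary granules with lactoferrin and gelatinase later. Of 20 tested genes of the secondary granule and S100 list 12 were lower in Tet2KO (2.72% of all genes were) and 2 higher, with a median log2 fold change of -2.01. The promoters of 4 of the genes called lower are shown as examples. Each line holds the 250 bases before the RefSeq start of the gene (GRCm38.p6), 5′ to 3′ on the gene's own strand. Capitals mark matches to TTNNGNAA, a core of the sites of the C/EBP factors that drive granule genes, or to GAGGAA, a core of the sites of the myeloid factor PU.1. Both were searched on both strands, and where matches overlap the capitals run on. Gene positions in the text are from GENCODE, whose starts of Ngp and Ltf lie within their RefSeq stretches. The last marked Ngp match lies past the GENCODE start of that gene. The Ngp stretch is chr9:110419558-110419807 (plus strand), that of Ltf chr9:111019042-111019291 (plus strand), that of Chil3 chr3:106167565-106167814 (minus strand) and that of S100a9 chr3:90695722-90695971 (minus strand).
Ngp: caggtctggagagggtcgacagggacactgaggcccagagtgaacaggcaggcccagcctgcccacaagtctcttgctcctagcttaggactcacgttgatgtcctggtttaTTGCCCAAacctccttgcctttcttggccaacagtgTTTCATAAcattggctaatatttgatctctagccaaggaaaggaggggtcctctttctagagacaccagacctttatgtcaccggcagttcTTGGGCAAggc
Ltf: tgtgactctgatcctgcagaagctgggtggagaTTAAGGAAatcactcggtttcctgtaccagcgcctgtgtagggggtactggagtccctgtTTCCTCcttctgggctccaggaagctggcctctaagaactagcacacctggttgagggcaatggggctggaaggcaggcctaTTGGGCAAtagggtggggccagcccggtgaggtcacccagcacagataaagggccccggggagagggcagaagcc
Chil3: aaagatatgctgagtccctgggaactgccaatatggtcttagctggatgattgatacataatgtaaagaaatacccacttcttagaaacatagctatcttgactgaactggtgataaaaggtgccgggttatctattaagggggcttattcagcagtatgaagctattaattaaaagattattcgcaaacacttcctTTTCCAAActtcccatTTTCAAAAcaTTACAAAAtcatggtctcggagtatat
S100a9: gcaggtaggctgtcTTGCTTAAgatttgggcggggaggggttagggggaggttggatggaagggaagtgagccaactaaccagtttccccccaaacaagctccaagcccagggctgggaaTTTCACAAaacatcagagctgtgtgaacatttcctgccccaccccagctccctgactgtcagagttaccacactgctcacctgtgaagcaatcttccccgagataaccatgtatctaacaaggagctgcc

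The C/EBP letters occurred in 11 of the 16 promoters of the list that the RefSeq table holds (68.8%) and in 8 of 11 whose gene was called lower (72.7%). The 4 shown hold 2 or 3 matches each and are not typical of the 11. Retnlg, Lcn2, Cd177 and S100a8 hold 1 and Camp, Padi4 and Pglyrp1 0, while Mmp8, which rose, holds 2. The C/EBP letters occurred in 36.8% of all 32851 promoters and in 28.9% of those of 9659 tested genes with 1 promoter. GAGGAA occurred in 7 of the 16 (43.8%) and in 23.3% of all promoters. The letters were not particular to genes that fell. In 8 promoters of T and NK cell genes called higher, the C/EBP letters occurred in 50% and GAGGAA in 62.5%, at a median of 2.5 CG. Over the 280 promoters of genes called higher the shares were 37.1% and 35.4%, and over the 327 called lower 36.4% and 26.9%. The 16 promoters held a median of 3 CG dinucleotides, against 6 for all promoters and 15 for those of tested genes with 1 promoter. These matches describe the letters of the window and no test of the list was made on them.

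Ngp (neutrophilic granule protein, chromosome 9, 110419747 to 110423012), with 3 C/EBP matches above, had 4.39, 3.37 and 2.47 CPM in Tet2KO and 27.7, 27.1 and 23.7 CPM in WT. The groups lay far apart, and the log2 fold change was -2.94 ± 0.18 (edgeR adjusted p = 7.1e-10). Ltf (lactoferrin, an iron-binding protein of secondary granules, chromosome 9, 111019271 to 111042767) had 4.13, 4.88 and 3.97 CPM in Tet2KO and 29.2, 32.4 and 23.3 CPM in WT, at a log2 fold change of -2.71 ± 0.14 (edgeR adjusted p = 2.4e-11). S100a9 (a calcium-binding alarmin, chromosome 3, 90692632 to 90695721) had 17.5, 14.5 and 14.7 CPM in Tet2KO and 97.8, 96.6 and 68.3 CPM in WT, at -2.49 ± 0.19. Its partner S100a8 had 12.4, 10.5 and 9.79 CPM in Tet2KO and 61.9, 52.6 and 40.4 CPM in WT, so that both genes of the calprotectin dimer moved together without overlap of the groups. Chil3 (a chitinase-like lectin also made by alternatively activated macrophages, chromosome 3, 106147554 to 106167564) had 10.6, 9.99 and 8.42 CPM in Tet2KO and 50.5, 49.8 and 45.4 CPM in WT, at -2.33 ± 0.14.

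**Figure D2:**
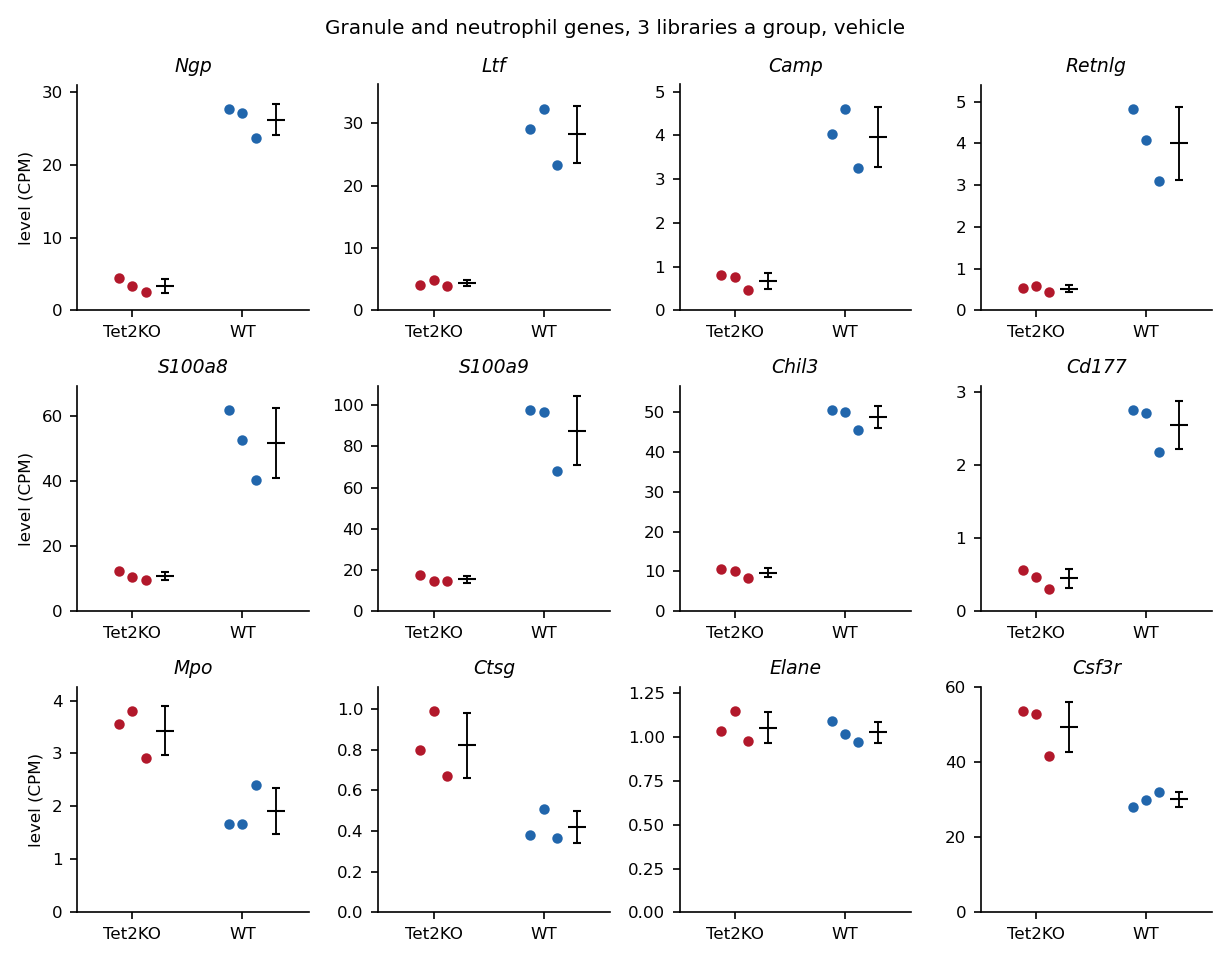
Level in CPM (y axes, each from 0) of 12 granule and neutrophil genes in the 3 Tet2KO and 3 WT vehicle libraries (1 point a library), with the mean ± SD of each group beside its points. In the 8 genes of the upper rows every Tet2KO library lies below every WT library, which the rule for the largest falls required of all but S100a8. Mpo, Ctsg and Csf3r lie higher in Tet2KO and Elane overlaps.

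At lower levels the same direction held for Retnlg (a resistin-like protein of neutrophils, -2.94 ± 0.30), Camp (cathelicidin, an antimicrobial peptide, -2.57 ± 0.30), Cd177 (a neutrophil surface glycoprotein, -2.50 ± 0.22), Lcn2 (lipocalin-2, which binds bacterial siderophores, -1.93 ± 0.24) and Padi4 (a deiminase of histones, -1.501 ± 0.16). Olfm4, a protein of a subset of secondary granules that is not on the list, had 0.0775, 0.0793 and 0.0773 CPM in Tet2KO and 1.45, 1.95 and 1.26 CPM in WT (-4.25 ± 0.50, edgeR adjusted p = 1.0e-05). Itgb2l, a neutrophil integrin chain, fell by 2.30 on the log2 scale. The 2 members called higher were the metalloproteinases Mmp8 and Mmp9. Mmp8 (collagenase) had 64.9, 55.7 and 40.1 CPM in Tet2KO and 37.7, 38 and 36.7 CPM in WT (0.52 ± 0.12, edgeR adjusted p = 0.0118). Mmp9 (gelatinase B) had 44.3, 39.9 and 53.2 CPM in Tet2KO and 34, 34 and 27.7 CPM in WT (0.53 ± 0.13, edgeR adjusted p = 0.0195). The Mmp8 call was lost without Tet2KO library 1, Tet2KO library 2 or WT library 3, and the Mmp9 call without Tet2KO library 3 or WT library 3. The fall of the list was as wide with each library left out, at 11 or 12 genes.

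Primary granule genes did not follow. Of 8 tested 2 were higher and 0 lower, with a median of 0.15. Mpo (myeloperoxidase, chromosome 11, 87793581 to 87804413) had 3.56, 3.81 and 2.91 CPM in Tet2KO and 1.67, 1.67 and 2.41 CPM in WT, a rise of 0.83 ± 0.21 (edgeR adjusted p = 0.0183). Ctsg (cathepsin G) had 0.801, 0.992 and 0.67 CPM in Tet2KO and 0.382, 0.509 and 0.367 CPM in WT, a rise of 0.95 ± 0.25 (edgeR adjusted p = 0.0268). Both calls were lost without Tet2KO library 1, Tet2KO library 2 or WT library 1, that of Mpo also without WT library 2 and that of Ctsg also without WT library 3. Elane (neutrophil elastase) had 1.03, 1.15 and 0.979 CPM in Tet2KO and 1.09, 1.02 and 0.97 CPM in WT, with overlapping groups (0.03 ± 0.25, edgeR adjusted p = 0.972).

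Among 16 neutrophil surface and transcription genes 4 were lower and 1 higher. Cxcr2, the chemokine receptor that draws neutrophils, had 1.42, 1.82 and 1.29 CPM in Tet2KO and 2.7, 3.76 and 3.33 CPM in WT (-1.13 ± 0.20, edgeR adjusted p = 8.3e-04). The stefins Stfa2 and Stfa2l1, inhibitors of cysteine proteases whose copies can share reads, fell by 2.59 and 2.10. Csf3r, the receptor for G-CSF and also present on monocytes, rose instead, with 53.7, 52.9 and 41.7 CPM in Tet2KO and 28.2, 29.9 and 32.2 CPM in WT (0.71 ± 0.10, edgeR adjusted p = 1.1e-04). Ly6g, which defines mature mouse neutrophils, was near 0 in all 6 libraries, at 0.103 CPM or less in Tet2KO and 0.105 CPM or less in WT. In RNA of a whole culture, fewer cells of a type and less RNA of a gene per cell cannot be told apart. The 20 genes together summed to 1233 to 1327 CPM in Tet2KO and 1425 to 1659 CPM in WT. Most of that sum was Anxa1 (annexin A1), with 624, 667 and 639 CPM in Tet2KO and 739, 722 and 672 CPM in WT, and the NADPH oxidase chains Cyba and Cybb, which macrophages also make and which were not called.

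The granule pattern was read again in libraries outside the comparison. With LDL 9 of the 20 secondary granule and S100 genes were lower in Tet2KO (1.48% of all genes were) and 2 higher, at a median of -1.13. Ngp then had 2.66, 1.86 and 1.98 CPM in Tet2KO and 16.7, 11.1 and 16.8 CPM in WT (log2 fold change -2.77 ± 0.19, edgeR adjusted p = 5.5e-09). Without the LDL pair that held Gfap 9 of the list were lower and 1 higher, and Ngp was called (-2.61, edgeR adjusted p = 2.5e-06). In batch 1, where 19 of these genes were tested, 2 were lower (1.16% of all genes were) and 0 higher, at a median of -1.10. Ngp there had 6.39, 3.73 and 1.84 CPM in Tet2KO and 10.3, 13 and 14.5 CPM in WT, without overlap and not called (-1.66 ± 0.57, edgeR adjusted p = 0.232). The 2 called genes of batch 1 were Chil3 and Cd177. Chil3 had 8.99, 7.07 and 2.59 CPM in Tet2KO and 27.2, 25.5 and 29.2 CPM in WT (-2.14 ± 0.43, edgeR adjusted p = 0.0433), and Cd177 had 0.562, 0.384 and 0.239 CPM in Tet2KO and 2.19, 1.65 and 1.67 CPM in WT (-2.20 ± 0.36, edgeR adjusted p = 0.0183). Of 7 primary granule genes tested in batch 1, 2 were lower and 1 higher. Mpo had 1.33, 1.38 and 1.57 CPM in Tet2KO and 3.41, 3.35 and 3.19 CPM in WT, a fall (-1.21 ± 0.23, edgeR adjusted p = 0.0364).

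Dnmt3aKO macrophages, which lack a DNA methyltransferase, were set against Tet2KO directly. Ngp had 4.39, 3.37 and 2.47 CPM in Tet2KO and 75.4, 77.4 and 76.2 CPM in Dnmt3aKO (log2 fold change -4.48 ± 0.19, edgeR adjusted p = 1.2e-12). Retnlg had 0.542, 0.595 and 0.438 CPM in Tet2KO and 23, 24.1 and 21.3 CPM in Dnmt3aKO (-5.45 ± 0.29). Of the 20 secondary granule and S100 genes 16 were lower in Tet2KO than in Dnmt3aKO (4.7% of all genes were) and 1 higher, at a median of -3.32. Mpo was lower in Tet2KO than in Dnmt3aKO, with 3.56, 3.81 and 2.91 CPM in Tet2KO and 7.82, 5.74 and 5.47 CPM in Dnmt3aKO (-0.89 ± 0.19, edgeR adjusted p = 0.00386). In all, 1707 genes were called in this contrast (8.78%), 794 higher in Tet2KO (4.08%) and 913 lower, and it shares the 3 Tet2KO libraries with the comparison against WT.

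Transcripts of lymphocytes were higher in Tet2KO. Of 26 tested genes of the T and NK cell list 18 were higher (2.76% of all genes were) and 0 lower, at a median of 1.32, and 25 had a positive value. The list summed to 216 to 237 CPM in Tet2KO and 143 to 152 CPM in WT. Its most abundant gene was Cd28, a costimulatory receptor of T cells, which had 102, 100.2 and 87.2 CPM in Tet2KO and 65.6, 71.6 and 82.5 CPM in WT (0.40 ± 0.16, not called, edgeR adjusted p = 0.188). Thy1, a surface glycoprotein of T cells, had 19.2, 20.8 and 19.5 CPM in Tet2KO and 21.8, 21.3 and 18.9 CPM in WT, with overlapping groups (-0.06 ± 0.12, not called, edgeR adjusted p = 0.851). Cd4, the coreceptor of helper T cells that mouse macrophages can also carry (chromosome 6, 124864692 to 124888221), had 44.3, 47.4 and 44 CPM in Tet2KO and 22.7, 23.1 and 25 CPM in WT, a rise of 0.94 ± 0.08 (edgeR adjusted p = 2.6e-07).

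Further called members of the list were at lower levels. Lck, the kinase that starts T cell receptor signalling (chromosome 4, 129548344 to 129573641), had 5.68, 5.99 and 5.67 CPM in Tet2KO and 3.5, 2.32 and 2.36 CPM in WT (1.08 ± 0.18, edgeR adjusted p = 4.0e-04). Il2rb, the beta chain of the interleukin-2 receptor, had 15.3, 16.1 and 14.8 CPM in Tet2KO and 6.58, 4.92 and 4.8 CPM in WT (1.504 ± 0.16, edgeR adjusted p = 3.6e-06). Tcf7, a transcription factor of T cells and early lymphoid cells, had 12.4, 11.5 and 11.9 CPM in Tet2KO and 6.36, 5.82 and 4.98 CPM in WT (1.06 ± 0.12, edgeR adjusted p = 4.7e-06). In each of these genes the 3 Tet2KO libraries lay above the 3 WT libraries. The signalling chains Cd3e (1.72 ± 0.36), Cd3d (1.61 ± 0.39) and Cd3g (1.65 ± 0.33) of the receptor complex were at 1.11 to 1.88 CPM in Tet2KO and 0.315 to 0.683 CPM in WT. The NK granule gene Nkg7 (1.33 ± 0.31) and the kinase Zap70 (1.37 ± 0.25) rose as well. The call was lost without WT library 2 or WT library 3 for Nkg7 and Cd3d, and for Cd3d also without Tet2KO library 3. Trac, the constant segment of the T cell receptor alpha chain, had 2.09, 2.74 and 2.09 CPM in Tet2KO and 1.75, 1.84 and 1.52 CPM in WT and was not called (0.43 ± 0.19, edgeR adjusted p = 0.253).

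With LDL 5 of the 26 genes were higher in Tet2KO (1.28% of all genes were) and 0 lower, at a median of 0.50. Lck then had 4.95, 4.09 and 3.54 CPM in Tet2KO and 3.37, 3.09 and 3.34 CPM in WT (0.37 ± 0.18, not called, edgeR adjusted p = 0.414). Without the LDL pair that held Gfap 3 of the list were higher. Batch 1 held too few counts for most of the list: 12 genes were tested and 2 were higher (0.73% of all genes were), Cd4 and Cd28. Cd4 had 13.3, 13.9 and 20.5 CPM in Tet2KO and 5.91, 8.6 and 5.85 CPM in WT, and Cd28 had 167, 126 and 129 CPM in Tet2KO and 89.6, 86.1 and 78.1 CPM in WT. Set against Dnmt3aKO, 17 of the 26 were higher in Tet2KO (4.08% of all genes were) and 0 lower. Lck had 5.68, 5.99 and 5.67 CPM in Tet2KO and 2.25, 2.17 and 1.66 CPM in Dnmt3aKO (1.51 ± 0.18, edgeR adjusted p = 4.1e-06).

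B cell genes moved in both directions. Of 11 tested, 6 were higher (2.76% of all genes were) and 1 lower (2.72%), at a median of 1.13. Pax5, the factor that commits cells to the B lineage, had 3.62, 3.65 and 2.86 CPM in Tet2KO and 1.17, 1.22 and 0.813 CPM in WT (1.66 ± 0.22, edgeR adjusted p = 5.1e-05). Ighm, the constant segment of IgM, had 58.4, 53.1 and 48.9 CPM in Tet2KO and 27.8, 25.3 and 20.4 CPM in WT (1.13 ± 0.19, edgeR adjusted p = 4.8e-04). Outside these rises, Ighg2b and Igha, constant segments of switched antibodies, fell. Ighg2b had 0.103, 0.159 and 0.0515 CPM in Tet2KO and 2.84, 2.06 and 1.78 CPM in WT (-4.46 ± 0.62, edgeR adjusted p = 7.6e-05), and Igha had 1.89, 1.71 and 2.94 CPM in Tet2KO and 8.79, 7.92 and 8.52 CPM in WT (-1.93 ± 0.28, edgeR adjusted p = 1.2e-04). The variable segments Igkv14-126 (2.59 ± 0.37) and Ighv11-2 (2.37 ± 0.38) rose. The kappa constant segment Igkc had 10.8, 11.1 and 10.4 CPM in Tet2KO and 12.8, 7.1 and 7.92 CPM in WT with overlapping groups. Antibody segments have near-identical copies that can share reads, so the values of single segments are uncertain. Cd22, an inhibitory receptor of B cells that these cultures held at 11.2 CPM and above, fell, with 11.3, 11.2 and 11.4 CPM in Tet2KO and 16.4, 16.1 and 15.4 CPM in WT (-0.50 ± 0.10, edgeR adjusted p = 0.00288). It fell in the other sets as well, by 1.00 with LDL and by 1.13 in batch 1, where it had 12, 16.4 and 15.2 CPM in Tet2KO and 28.4, 34.2 and 32.7 CPM in WT. Of the 11 B cell genes 4 were higher with LDL (1.28% of all genes were) and 1 lower, at a median of 0.65. In batch 1 0 of 10 tested were called higher and 1 lower, at a median of 0.70. The list there summed to 27.6 to 76.9 CPM in Tet2KO and 50.2 to 63.8 CPM in WT, with overlapping groups. Set against Dnmt3aKO, 4 of the 11 B cell genes were lower (4.7% of all genes were) and 0 higher. Whether lymphocytes in the cultures account for part of these values was not tested.

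Gdf3 (chromosome 6, 122605403 to 122610087) encodes a secreted factor related to TGF-beta and was among the largest rises. It had 12.4, 12.7 and 13.3 CPM in Tet2KO and 1.04, 1.02 and 1.39 CPM in WT, groups that lay far apart (3.47 ± 0.16, edgeR adjusted p = 8.2e-12). It was the 1 called gene among 26 tested TGF-beta ligands and feedback genes. With LDL it had 12.1, 9.52 and 10.9 CPM in Tet2KO and 0.947, 0.909 and 0.721 CPM in WT (3.65 ± 0.17, edgeR adjusted p = 7.6e-12). In batch 1 all levels were higher and more spread, at 98.7, 53.2 and 34.3 CPM in Tet2KO and 2.99, 22.4 and 19.6 CPM in WT, which did not overlap and were not called (2.04 ± 0.73, edgeR adjusted p = 0.258). Dnmt3aKO libraries held more Gdf3, at 12.4, 12.7 and 13.3 CPM in Tet2KO and 23.6, 21.2 and 24.9 CPM in Dnmt3aKO (-0.86 ± 0.13, edgeR adjusted p = 1.3e-04).

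The Xlr3 and Xlr4 genes, a cluster of X-linked lymphocyte-regulated genes related to a protein of meiotic chromosomes, held a further large rise. Of 8 tested genes of the Xlr and cancer-testis list 4 were higher (2.76% of all genes were) and 0 lower. The list summed to 23.1 to 25.6 CPM in Tet2KO and 11.5 to 12.2 CPM in WT. Xlr3b (chromosome X, 73192207 to 73202930) had 8.42, 8.45 and 7.55 CPM in Tet2KO and 1.67, 1.36 and 1.39 CPM in WT (2.46 ± 0.14, edgeR adjusted p = 2.2e-10). The 250 bases before its RefSeq start (chrX:73191929-73192178, plus strand, GRCm38.p6) are given since the comparison deletes an enzyme that acts on methylated CG. Capitals mark CG dinucleotides, of which it holds 6. The median was 6 over all promoters of the table and 15 over those of tested genes with 1 promoter.
Xlr3b: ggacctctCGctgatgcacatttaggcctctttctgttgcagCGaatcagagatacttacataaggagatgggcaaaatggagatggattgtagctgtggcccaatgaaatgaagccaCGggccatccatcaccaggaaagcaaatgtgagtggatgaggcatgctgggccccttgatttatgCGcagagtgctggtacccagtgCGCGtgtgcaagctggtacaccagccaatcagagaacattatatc

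That stretch and the one before Xlr3c agree at 226 of 230 aligned bases, and the genes are near copies whose reads the counting could have split, so single members are less certain than their sum. Xlr3c (2.83 ± 0.34) and Xlr3a (1.79 ± 0.24) rose as well. Xlr4b rose by a smaller step, with 6.12, 5.71 and 5.13 CPM in Tet2KO and 4.18, 3.79 and 4.14 CPM in WT (0.48 ± 0.14, edgeR adjusted p = 0.0476), a call that was lost whichever 1 of the 6 libraries was left out. Xlr4a just missed the threshold (0.56 ± 0.16, edgeR adjusted p = 0.0518), and Xlr4c had 2.27, 1.63 and 2.19 CPM in Tet2KO and 1.67, 1.98 and 1.7 CPM in WT. With LDL Xlr3b had 6.86, 7.72 and 6.65 CPM in Tet2KO and 1.42, 1.87 and 1.74 CPM in WT (2.08 ± 0.14, edgeR adjusted p = 4.6e-09). In batch 1 it had 2.98, 0.73 and 1.02 CPM in Tet2KO and 1.59, 0.55 and 4.38 CPM in WT, with overlapping groups (-0.46 ± 0.83, edgeR adjusted p = 0.877). Against Dnmt3aKO Xlr3b was not called, with 8.42, 8.45 and 7.55 CPM in Tet2KO and 10.9, 10.3 and 10.2 CPM in Dnmt3aKO (-0.36 ± 0.12, edgeR adjusted p = 0.0779). Of the 8 genes of the list 3 were lower in Tet2KO than in Dnmt3aKO (4.7% of all genes were) and 0 higher, at a median of -0.68. The list summed to 35.2 to 37.2 CPM in Dnmt3aKO. Higher values were not particular to Tet2KO: over WT with vehicle the list median was 1.54 in Dnmt3aKO and 0.60 in Tet2KO. Of 11 germline genes tested 0 were called by edgeR, with 2 at an unadjusted p under 0.05 and 0 called by DESeq2.

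The other large rises were in Ifi208, Adgre4, Serpina3b and Gprc5c, the last chosen after its values were seen. Ifi208, of the interferon-inducible p200 family, had 3.05, 1.51 and 1.52 CPM in Tet2KO and 0.137, 0.113 and 0.0787 CPM in WT (4.18 ± 0.41, edgeR adjusted p = 9.3e-07). Adgre4, an adhesion receptor of monocytes and macrophages, had 4, 5.87 and 3.17 CPM in Tet2KO and 0.519, 0.481 and 0.446 CPM in WT (3.15 ± 0.30, edgeR adjusted p = 6.4e-07). Serpina3b, a serine protease inhibitor, had 1.37, 1.55 and 2.16 CPM in Tet2KO and 0.601, 0.141 and 0.446 CPM in WT (2.08 ± 0.37). Gprc5c, an orphan receptor, had 22.7, 28.8 and 24.7 CPM in Tet2KO and 8.44, 7.44 and 8.55 CPM in WT (1.64 ± 0.12, edgeR adjusted p = 1.2e-08). With LDL, Adgre4 had 0.753, 0.377 and 0.266 CPM in Tet2KO and 0.223, 0.386 and 0.295 CPM in WT (0.65 ± 0.39, not called, edgeR adjusted p = 0.546). Of 31 tested genes of the type I interferon response edgeR called 0, with 3 at an unadjusted p under 0.05 and 1 called by DESeq2, at a median of -0.30.

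**Figure D3:**
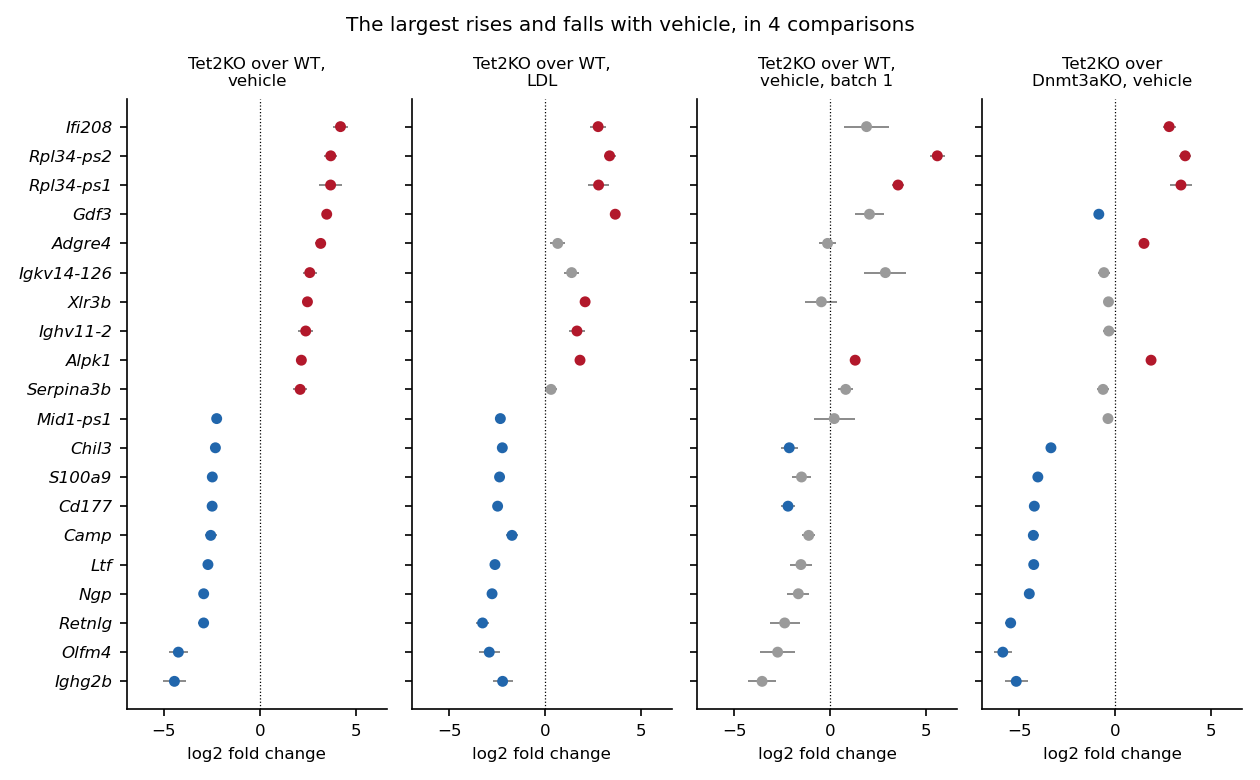
Log2 fold change with its SE (x axes) of the 20 genes with the largest rises and falls with vehicle (rows), in the comparison that chose them (left panel) and in 3 others. Red and blue points were called higher and lower in Tet2KO and grey ones were not called. Ighv11-2 has no point in batch 1, where it was not tested. Granule genes lie left of 0 in all 4 panels, while Gdf3 lies right of 0 against WT and left of 0 against Dnmt3aKO.

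Cell cycle genes were lower in Tet2KO. Of 38 tested 17 were lower (2.72% of all genes were) and 0 higher, at a median of -0.44, and not 1 had a positive value. The list summed to 2462 to 2824 CPM in Tet2KO and 3457 to 3690 CPM in WT. Mcm6, a subunit of the replicative helicase, had 119.9, 111 and 127 CPM in Tet2KO and 175, 182 and 173 CPM in WT (-0.56 ± 0.08, edgeR adjusted p = 1.6e-04). Pcna, the sliding clamp of DNA polymerase, had 165, 153 and 163 CPM in Tet2KO and 251, 239 and 224 CPM in WT (-0.57 ± 0.10, edgeR adjusted p = 8.9e-04). Nusap1, a protein of the mitotic spindle, had 45.5, 42.5 and 50.3 CPM in Tet2KO and 64.4, 74.6 and 74.8 CPM in WT (-0.63 ± 0.10, edgeR adjusted p = 5.2e-04). The 3 genes showed no overlap of the groups. The proliferation marker Mki67 had 238, 113 and 243 CPM in Tet2KO and 274, 342 and 312 CPM in WT, with Tet2KO library 2 far below the rest, and was not called (-0.64 ± 0.29, edgeR adjusted p = 0.252). The count of lower genes was 11 without Tet2KO library 2, 9 without WT library 2 and 0 against a minimum change of 1.5-fold.

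The other sets gave values nearer 0 or above it. With LDL 1 of the 38 was lower, a call lost without the LDL pair that held Gfap, at a median of -0.09. Mcm6 had 116, 95.9 and 111 CPM in Tet2KO and 115, 111 and 115 CPM in WT (-0.08 ± 0.08, not called, edgeR adjusted p = 0.753). In batch 1 edgeR called 0, with 9 at an unadjusted p under 0.05 and 3 called by DESeq2, at a median of 0.31. Mcm6 had 138, 123 and 103 CPM in Tet2KO and 91.5, 108 and 95.8 CPM in WT (0.30 ± 0.12, not called, edgeR adjusted p = 0.307). The difference between the LDL and vehicle effects was called by edgeR for 0 of the 38 genes, while 18 had an unadjusted p under 0.05 and DESeq2 called 2. Lower values were not particular to Tet2KO: Dnmt3aKO against the same WT vehicle libraries had a list median of -0.71. Tet2KO against Dnmt3aKO directly gave 4 higher (4.08% of all genes were) and 1 lower (4.7%), at a median of 0.24.

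Of 25 genes of cholesterol synthesis 7 were lower (2.72% of all genes were) and 0 higher, at a median of -0.27. Sqle, squalene epoxidase, had 50.2, 46.5 and 50.4 CPM in Tet2KO and 63.7, 69.9 and 72.4 CPM in WT (-0.49 ± 0.08, edgeR adjusted p = 4.0e-04). Hmgcs1, which makes the precursor of mevalonate, had 70.6, 74 and 65.4 CPM in Tet2KO and 86.2, 93.8 and 95.4 CPM in WT (-0.39 ± 0.08, edgeR adjusted p = 0.00538). It fell in batch 1 as well, with 45.2, 41.3 and 47.3 CPM in Tet2KO and 58.8, 61.5 and 66.3 CPM in WT (-0.48 ± 0.09, edgeR adjusted p = 0.0366). The count of 7 was 4 without WT library 3. In batch 1 4 of 24 genes of the list were lower (1.16% of all genes were) and 0 higher, at a median of -0.33. With LDL edgeR called 0, with 3 at an unadjusted p under 0.05 and 1 called by DESeq2. Dnmt3aKO against the same WT vehicle libraries had a list median of -0.28. Tet2KO against Dnmt3aKO directly gave 1 higher (4.08% of all genes were) and 0 lower, at a median of -0.01.

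Inflammatory genes did not move as a block. Of 26 tested cytokines and NF-kB targets 6 were higher (2.76% of all genes were) and 3 lower (2.72%), at a median of 0.16. Il1b, interleukin-1 beta, had 102, 99.8 and 82.2 CPM in Tet2KO and 56.5, 37.9 and 23.8 CPM in WT, without overlap (1.26 ± 0.28, edgeR adjusted p = 0.00833), a call that was lost without WT library 3. Il1rn, the antagonist that blocks its receptor, moved the other way, with 38.8, 43.6 and 43.2 CPM in Tet2KO and 76.3, 80.3 and 84.5 CPM in WT (-0.94 ± 0.09, edgeR adjusted p = 5.7e-07). Nos2, the inducible nitric oxide synthase, had 50.6, 51 and 38.5 CPM in Tet2KO and 23.2, 31.8 and 17.7 CPM in WT (0.95 ± 0.17, edgeR adjusted p = 9.0e-04). Osm, the cytokine oncostatin M, had 7.18, 6.82 and 7.24 CPM in Tet2KO and 4.83, 4.55 and 4.8 CPM in WT (0.58 ± 0.10, edgeR adjusted p = 0.00111). Il6 was not called, with 8.42, 7.89 and 4.41 CPM in Tet2KO and 7.73, 8.14 and 8.34 CPM in WT (-0.23 ± 0.20, edgeR adjusted p = 0.615). Tnf was lower at the edge of the threshold, with 7, 3.93 and 6.59 CPM in Tet2KO and 9.8, 9.1 and 8.21 CPM in WT (-0.62 ± 0.18, edgeR adjusted p = 0.0491). This call was lost without any of 5 libraries in turn. The count of 6 higher genes was 3 without Tet2KO library 1 or WT library 1 and 2 without WT library 3. The count of 3 lower ones was 1 without Tet2KO library 2 or 3 or WT library 2 or 3.

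The interleukin-1 pair was read in the other sets too. With LDL Il1b had 822, 574 and 568 CPM in Tet2KO and 408, 209 and 237 CPM in WT (1.20 ± 0.28, edgeR adjusted p = 0.0178). Il1rn had 46.5, 39.5 and 45.6 CPM in Tet2KO and 72.5, 64.3 and 79.8 CPM in WT (-0.72 ± 0.09, edgeR adjusted p = 2.3e-05). Without the LDL pair that held Gfap Il1rn was called (-0.67, edgeR adjusted p = 9.2e-04) and Il1b was not (1.18, edgeR adjusted p = 0.139). In batch 1 Il1rn was lower again, with 37.6, 47.5 and 28.1 CPM in Tet2KO and 154, 167 and 128 CPM in WT (-1.99 ± 0.21, edgeR adjusted p = 0.00222). Il1b overlapped, with 34.8, 94.3 and 56.6 CPM in Tet2KO and 49, 33.5 and 30.3 CPM in WT. The fall of the antagonist was called in all 3 sets, and the rise of the cytokine with vehicle and, in the full LDL set, with LDL.

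Of 18 inflammasome genes 3 were higher (2.76% of all genes were) and 1 lower (2.72%). The lower one was the sensor Nlrp3, with 31.3, 30.7 and 29.5 CPM in Tet2KO and 37.4, 41.6 and 42.8 CPM in WT (-0.41 ± 0.11, edgeR adjusted p = 0.0226), a call lost without any of 5 libraries in turn. The count of 3, which holds Il1b, was 1 without Tet2KO library 1 or 2 or WT library 1 or 2. Chemokines gave 4 lower genes (2.72% of all genes were) and 1 higher (2.76%) of 20. Ccl4 (-1.12 ± 0.17), Ccl3 (-0.72 ± 0.13), Ccl2 (-0.59 ± 0.14) and Ccl12 (-1.17 ± 0.28), attractants of monocytes and lymphocytes, fell. The call was lost without Tet2KO library 3 or WT library 2 for Ccl2 and without Tet2KO library 2 or WT library 1 for Ccl12. Ppbp, a CXC chemokine of platelets and macrophages, rose, with 60.7, 50.8 and 51.2 CPM in Tet2KO and 31.5, 27.9 and 23.5 CPM in WT (0.97 ± 0.13, edgeR adjusted p = 6.5e-05). Among 24 Toll-like receptors and adaptors, Tlr2, the receptor for bacterial lipopeptides, had 243, 240.5 and 193 CPM in Tet2KO and 149.8, 128 and 127 CPM in WT (0.74 ± 0.10, edgeR adjusted p = 8.5e-05). Its partner Tlr6 fell, with 19.8, 19.2 and 18.9 CPM in Tet2KO and 27, 28 and 27.2 CPM in WT (-0.51 ± 0.07, edgeR adjusted p = 8.7e-05). Tlr6 fell in the other sets as well, by 0.70 on the log2 scale with LDL and by 1.11 in batch 1, again without overlap. Tlr5, the receptor for flagellin, rose (0.95 ± 0.21) and Cd180, a regulator of Tlr4 signalling, fell (-0.69 ± 0.13).

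Class II antigen presentation was higher at its regulator and at some of its chains. Ciita, the coactivator that switches class II genes on, had 4.24, 3.93 and 2.86 CPM in Tet2KO and 1.28, 1.33 and 1.78 CPM in WT (1.32 ± 0.24, edgeR adjusted p = 0.00149). H2-Aa had 26.7, 26.1 and 20.1 CPM in Tet2KO and 11.6, 8.11 and 7.19 CPM in WT (1.44 ± 0.26, edgeR adjusted p = 0.00111). H2-Eb1 had 14.8, 11.5 and 11.4 CPM in Tet2KO and 6.69, 4.67 and 4.54 CPM in WT (1.25 ± 0.24, edgeR adjusted p = 0.00229), again without overlap. Cd74, the invariant chain, had 57.6, 49.1 and 37.9 CPM in Tet2KO and 31, 24.6 and 18.6 CPM in WT and was not called (0.96 ± 0.30, edgeR adjusted p = 0.0692), nor was H2-Ab1 (0.56 ± 0.23). Of 30 antigen presentation and interferon gamma targets 4 were higher and 1 lower, at a median of 0.22. With LDL edgeR called 0 of the 30, with 9 at an unadjusted p under 0.05 and 1 called by DESeq2. H2-Aa then had 10.8, 8.16 and 7.53 CPM in Tet2KO and 16.1, 7.47 and 9.64 CPM in WT, with overlapping groups. Ciita had 0.695, 1.51 and 1.03 CPM in Tet2KO and 1.73, 1.74 and 1.9 CPM in WT, with Tet2KO the lower group. The LDL effect on Ciita differed from the vehicle effect (LDL minus vehicle -2.04 ± 0.36, edgeR adjusted p = 0.0276). This difference was not called without the LDL pair that held Gfap. B cells and dendritic cells also carry class II molecules, and 3 of 12 dendritic cell genes were higher with 0 lower. Among them Flt3, a receptor of dendritic cell precursors, had 0.568, 0.555 and 0.464 CPM in Tet2KO and 0.246, 0.113 and 0.157 CPM in WT. Their part in the class II values was not tested.

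Of 13 colony stimulating factors and receptors 4 were higher and 1 lower, and the 4 were all receptors of myeloid growth factors. Csf1r, the receptor for the M-CSF in the medium, had 2968, 2809 and 2705 CPM in Tet2KO and 2199, 2100.5 and 2098 CPM in WT (0.41 ± 0.07, edgeR adjusted p = 7.2e-04). Csf2rb, the chain shared by the receptors of GM-CSF, interleukin-3 and interleukin-5, had 313, 275 and 236 CPM in Tet2KO and 175, 173 and 169 CPM in WT (0.68 ± 0.08, edgeR adjusted p = 8.2e-06). Its near copy Csf2rb2, with which it may share reads, had 259.9, 222 and 193 CPM in Tet2KO and 129.6, 137 and 129 CPM in WT (0.77 ± 0.08). The other one was Csf3r, which with LDL had 19, 20.6 and 16.3 CPM in Tet2KO and 20.5, 19.1 and 17.4 CPM in WT, with overlapping groups (-0.03 ± 0.10, edgeR adjusted p = 0.935). The difference between both effects on Csf3r just missed the threshold (LDL minus vehicle -0.74 ± 0.15, edgeR adjusted p = 0.0518).

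Of 14 monocyte genes 4 were higher (2.76% of all genes were) and 2, the granule genes Chil3 and Cd177, lower (2.72%). The 4 were 2 without Tet2KO library 1 or WT library 3. Ccr2, the receptor that brings monocytes into tissue, had 478, 464 and 399 CPM in Tet2KO and 204, 226 and 222 CPM in WT (1.04 ± 0.16, edgeR adjusted p = 3.3e-04). F13a1, a transglutaminase of monocytes, had 1200.3, 1296 and 1124 CPM in Tet2KO and 787, 847 and 771 CPM in WT (0.59 ± 0.11). With LDL 1 of the 14 monocyte genes was higher and 3 lower (1.48% of all genes were), at a median of 0.03. In batch 1 0 were higher and 2 lower (1.16% of all genes were), at a median of -0.22. Over WT with vehicle the monocyte list median was 0.35 in Tet2KO and 0.74 in Dnmt3aKO. Of 18 resident macrophage and efferocytosis genes 4 were lower in Tet2KO than in WT with vehicle and 0 higher, at a median of -0.28. Gas6, a bridge between dying cells and their receptors on macrophages, had 253, 238 and 308 CPM in Tet2KO and 468, 456 and 429 CPM in WT (-0.76 ± 0.10, edgeR adjusted p = 7.4e-05). C1qa, a chain of complement C1q, fell too (-0.77 ± 0.19). The count of 4 was 1 without Tet2KO library 1, Tet2KO library 2 or WT library 2 and 2 without WT library 1. Mrc1, the mannose receptor, had 630.5, 606 and 734 CPM in Tet2KO and 907, 1093 and 1130.1 CPM in WT (-0.67 ± 0.18, edgeR adjusted p = 0.035). In batch 1 it had 379.6, 313 and 375 CPM in Tet2KO and 221, 234 and 235 CPM in WT, a called rise (0.63 ± 0.12, edgeR adjusted p = 0.0301). The vehicle call of Mrc1 was lost without Tet2KO library 1 or 2 or WT library 2 or 3. Cx3cr1, the fractalkine receptor, rose, with 112, 126 and 117 CPM in Tet2KO and 64.2, 71 and 70.3 CPM in WT (0.79 ± 0.08, edgeR adjusted p = 2.3e-06). Cd68, a protein of lysosomes, fell (-0.47 ± 0.13, edgeR adjusted p = 0.0354), a call lost without Tet2KO library 1 or 2 or WT library 1 or 2.

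Of 23 genes of lipid uptake and storage 4 were lower (2.72% of all genes were) and 1 higher (2.76%). The 4 were 2 without Tet2KO library 1. Cd36, a receptor for oxidised lipoproteins and fatty acids, had 154, 171 and 181 CPM in Tet2KO and 270.1, 291 and 299 CPM in WT (-0.76 ± 0.10, edgeR adjusted p = 2.1e-05). Its fall was called in the other sets too. It had 370.0, 404 and 349 CPM in Tet2KO and 429.9, 541 and 518 CPM in WT with LDL (-0.41 ± 0.09, edgeR adjusted p = 0.0175). This LDL call was lost without the LDL pair that held Gfap (-0.33, edgeR adjusted p = 0.269). It had 671, 628 and 373 CPM in Tet2KO and 1429, 1334 and 1144 CPM in WT in batch 1 (-1.22 ± 0.24, edgeR adjusted p = 0.0364). Msr1, scavenger receptor A, had 169, 143 and 164 CPM in Tet2KO and 249, 269 and 249 CPM in WT (-0.69 ± 0.12, edgeR adjusted p = 7.7e-04). Lpl, lipoprotein lipase, had 89.6, 131 and 121 CPM in Tet2KO and 188, 199.8 and 197 CPM in WT (-0.78 ± 0.17, edgeR adjusted p = 0.00607), a call lost without Tet2KO library 1. In these 3 genes every Tet2KO library was below every WT library.

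Adhesion and coagulation genes also differed. Itgal, the alpha chain of the integrin LFA-1, had 104, 106 and 90 CPM in Tet2KO and 42.1, 42 and 42.6 CPM in WT (1.24 ± 0.11, edgeR adjusted p = 2.5e-07). Itga1, a chain of a collagen receptor, had 66.9, 55.4 and 43 CPM in Tet2KO and 27, 29.7 and 29.8 CPM in WT (0.93 ± 0.17, edgeR adjusted p = 0.00111). In all 5 of 23 leukocyte integrin and adhesion genes were higher and 1 lower. Of 12 megakaryocyte and platelet genes 5 were higher (2.76% of all genes were) and 0 lower, at a median of 0.96. Itga2b, the platelet fibrinogen receptor chain, had 8.4, 11 and 13.8 CPM in Tet2KO and 7.13, 4.21 and 5.85 CPM in WT (0.95 ± 0.20, edgeR adjusted p = 0.00527). Gp1ba, a receptor for von Willebrand factor, had 2.53, 2.1 and 2.37 CPM in Tet2KO and 1.2, 0.99 and 1.29 CPM in WT (1.01 ± 0.19, edgeR adjusted p = 0.00143). Pf4, platelet factor 4, overlapped, with 799, 675 and 791 CPM in Tet2KO and 866, 724 and 567 CPM in WT. With LDL edgeR called 0 of the 12, with 2 at an unadjusted p under 0.05 and 0 called by DESeq2. In batch 1 it called 0, with 2 at an unadjusted p under 0.05 and 1 called by DESeq2. Plau, the urokinase protease, fell, with 46.9, 54.6 and 57.8 CPM in Tet2KO and 81.7, 102 and 88 CPM in WT (-0.77 ± 0.15, edgeR adjusted p = 0.00179).

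Called genes near Tet2 were counted by distance, with no test of their share. Within 5 Mb of Tet2 on either side 5 genes were higher and 7 lower of 68 tested (17.6%). Within 10 Mb 7 were higher and 8 lower of 107 (14%), beside 5.96% of genes on the rest of chromosome 3 and 5.47% of all genes. The genes named here other than Alpk1, Npnt, Cisd2, Slc9b1 and Slc9b2 were chosen after their values were seen. Alpk1, a kinase that senses bacterial sugar metabolites (127670310 to 127780527), lies 5.78 Mb from Tet2 and had 118, 122 and 103 CPM in Tet2KO and 21.4, 26.4 and 29.6 CPM in WT (2.15 ± 0.19, edgeR adjusted p = 2.5e-07). It rose in each of the other sets, by 1.81 with LDL and by 1.29 in batch 1. It lay apart from Dnmt3aKO as well, with 118, 122 and 103 CPM in Tet2KO and 31.5, 30.8 and 32.4 CPM in Dnmt3aKO (1.86 ± 0.19, edgeR adjusted p = 5.8e-07). Its neighbour and signalling partner Tifa rose less, with 90, 89.7 and 78 CPM in Tet2KO and 54.3, 51.1 and 53.7 CPM in WT (0.70 ± 0.08, edgeR adjusted p = 1.2e-05). Ccdc109b, a subunit of the mitochondrial calcium uniporter (129914960 to 129970206), had 10.7, 7.89 and 9.99 CPM in Tet2KO and 34, 28.6 and 26.7 CPM in WT (-1.64 ± 0.16, edgeR adjusted p = 1.2e-06). It fell by 0.97 with LDL and by 1.84 in batch 1. Npnt, a matrix protein and the nearest called gene, had 17.8, 19.8 and 17.3 CPM in Tet2KO and 9.01, 11.2 and 12 CPM in WT (0.77 ± 0.13, edgeR adjusted p = 8.5e-04). Cisd2, a protein of the mitochondrial outer membrane, fell (-0.49 ± 0.07). The deletion and the stretch of chromosome 3 that is inherited with the floxed allele cannot be told apart in this design.

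**Figure D4:**
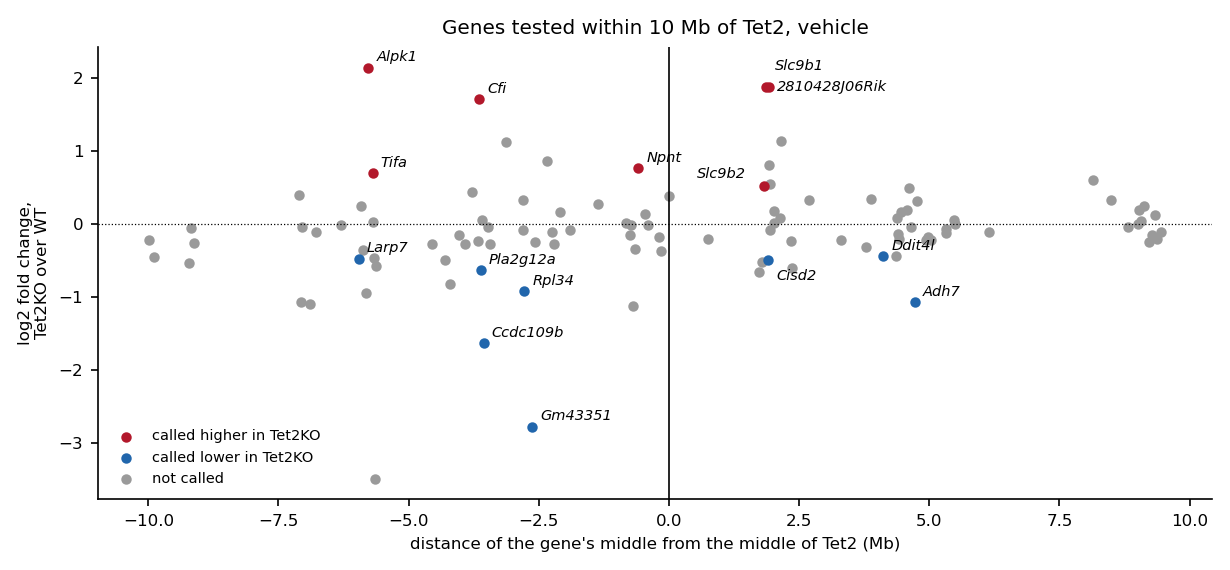
Log2 fold change of Tet2KO over WT with vehicle (y axis) by distance from Tet2 in Mb (x axis) for the 107 genes tested within 10 Mb, 1 point a gene, with called genes named. Called genes lie on both sides of Tet2 and in both directions, from Gm43351 at -2.78 to Alpk1 at 2.15.

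Rpl34, which encodes a protein of the large ribosomal subunit and lies 2.78 Mb from Tet2, was among these genes, and 5 of its pseudogenes, each on another chromosome, rose. The 5 copies are 354 bases long and match the Rpl34 transcript at 97.2% to 99.4% of positions, so reads can pass between the gene and its copies and the single values are uncertain. Rpl34 had 136, 128 and 142 CPM in Tet2KO and 315, 249 and 206 CPM in WT (-0.92 ± 0.22, edgeR adjusted p = 0.0109, a call lost without Tet2KO library 2 or WT library 1). Rpl34-ps1 on chromosome 6 had 154, 158 and 176 CPM in Tet2KO and 10.8, 10.8 and 16.7 CPM in WT (3.67 ± 0.58, edgeR adjusted p = 3.4e-04). Taken as a share of the sum of gene and copies, the copies held 65.2%, 67.1% and 67.1% in Tet2KO and 5.34%, 6.44% and 11.7% in WT. In batch 1 the shares were 32.9%, 33.3% and 33.8% in Tet2KO and 2.53%, 1.42% and 1.07% in WT. The groups lay apart in both sets, while the sums of gene and copies differed less, at 389 to 433 CPM in Tet2KO and 233 to 333 CPM in WT with vehicle. The split of the counts between gene and copies was chosen for description after the values were seen, and a difference in the Rpl34 sequence itself was not tested.

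**Figure D5:**
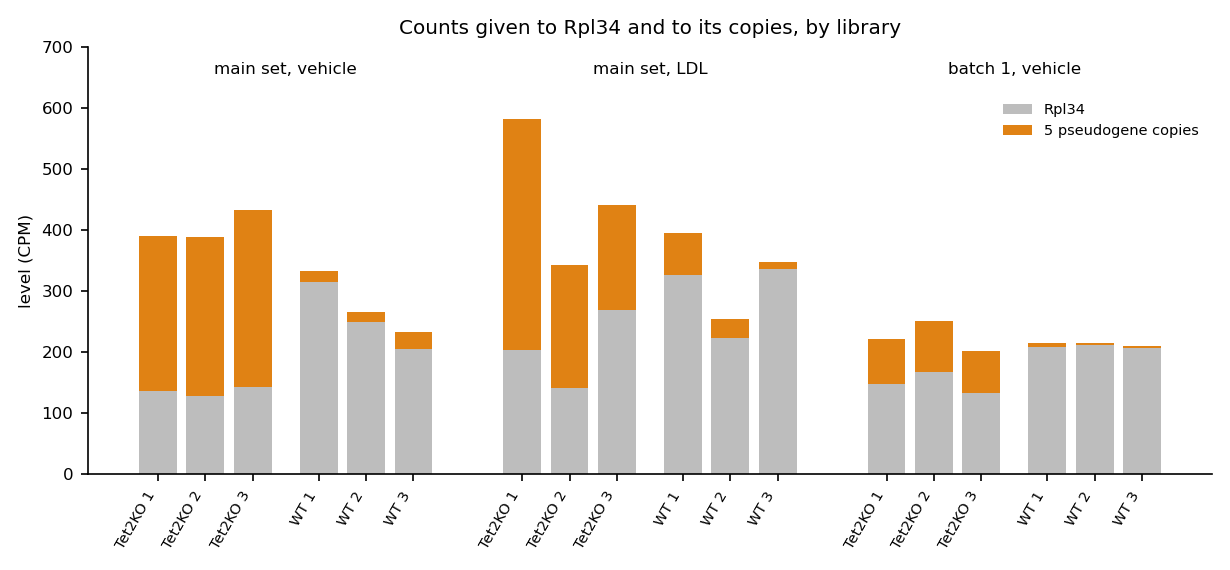
Level in CPM (y axis, from 0) counted for Rpl34 (grey) and, stacked on it, for its 5 pseudogene copies (orange) in each library (x axis), for vehicle, LDL and batch 1, with Tet2KO left of WT in each set. The copies make up 65.2% to 67.1% of the bar in the Tet2KO vehicle libraries of the main set and 5.34% to 11.7% in WT.

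Another gene whose groups lay far apart was Mid1, an X-linked ubiquitin ligase at the edge of the pseudoautosomal region, chosen after its values were seen. Mid1 had 21.7, 22.9 and 23.9 CPM in Tet2KO and 92.6, 95.8 and 94.1 CPM in WT (-2.04 ± 0.08, edgeR adjusted p = 2.8e-13). Its Y-linked copy Mid1-ps1, which can share its reads, had 3.41, 3.41 and 4.38 CPM in Tet2KO and 17.2, 17 and 19.6 CPM in WT (-2.26 ± 0.21, edgeR adjusted p = 6.4e-07). Against Dnmt3aKO the gene was not called, with 21.7, 22.9 and 23.9 CPM in Tet2KO and 26.1, 26.5 and 27.2 CPM in Dnmt3aKO (-0.22 ± 0.07, edgeR adjusted p = 0.0738). In batch 1 Mid1 was at 13.5, 38.6 and 15 CPM in Tet2KO and 12.7, 7.95 and 7.52 CPM in WT. 

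The calls were read again in 2 sets of libraries that share none with the comparison. With LDL 537 genes were called (2.76%), 249 higher in Tet2KO and 288 lower. Of the 1064 genes called with vehicle 329 (30.9%, and 61.3% of the LDL calls) were also called with LDL, 326 of them in the same direction. Of all the vehicle calls 921 (86.6%) had the same sign, as had 66.6% of all genes. Without the LDL pair that held Gfap 288 genes were called with LDL, 223 of these in the same direction as with vehicle, and the LDL calls of Gdf3, Xlr3b, Alpk1, Ccdc109b, Cd22 and Tlr6 held. A difference between the LDL and vehicle effects of Tet2KO was called for 20 genes (0.103%), 13 of which were called with vehicle, among them Gprc5c, Ciita and Cd4. Without that pair edgeR called 0, with 1238 genes at an unadjusted p under 0.05, and with them DESeq2 called 169.

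In batch 1 292 genes were called (1.89%), 113 higher and 179 lower in Tet2KO. Of the 919 vehicle calls tested there 84 (9.14%, and 28.8% of the batch 1 calls) were called again, 74 in the same direction and 10 in the opposite one. The same sign was found for 591 (64.3%), and for 53.1% of all genes tested in both sets. Called in 1 direction in all 3 sets were 44 genes, 34 of them lower and 10 higher in Tet2KO. Besides genes given above, they held Sel1l3, with 8.32, 6.58 and 6 CPM in Tet2KO and 21.6, 24.7 and 24.9 CPM in WT (-1.77 ± 0.13, edgeR adjusted p = 1.2e-08), and 5.05, 3.53 and 9.75 CPM in Tet2KO and 29.4, 31.5 and 30.6 CPM in WT in batch 1. They also held Cd55, which protects cells from complement, with 14.3, 12.8 and 14.2 CPM in Tet2KO and 6.8, 5.8 and 5.8 CPM in WT (1.17 ± 0.16, edgeR adjusted p = 7.9e-05). In batch 1 it had 13.7, 18.6 and 15.1 CPM in Tet2KO and 2.44, 3.2 and 2.28 CPM in WT. The lectin-like NK receptor Klra3 (-2.10 ± 0.26) was among the falls. The 10 rises held the Rpl34 copies Rpl34-ps1, Rpl34-ps2 and Gm10154, whose single values are uncertain. Alpk1 among the rises and Ccdc109b among the falls lie within 10 Mb of Tet2. Called in opposite directions were, besides Mpo and Mrc1, Ccl12, with 13.8, 7.1 and 12.9 CPM in Tet2KO and 28.2, 24.9 and 23.5 CPM in WT with vehicle, and 1.9, 3.11 and 1.84 CPM in Tet2KO and 0.366, 0.25 and 0.428 CPM in WT in batch 1, and 7 further genes.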

How the data were processed

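RNA of bone marrow-derived macrophages was sequenced, and the extract protocol in the labels names both Ribo-Zero depletion and poly-A selection. The authors deposited 1 table of counts per gene for the main set of 24 libraries and 1 for batch 1 with 10, and per the submitters' processing notes the genome build was mm10. Names of an aligner or counter were not given in the sources used here. The main table is named as normalized but holds whole-number counts with unequal totals, and it was used as counts. Totals were 24105237 to 43904761 in the main set and 15171143 to 44449473 in batch 1. Gene symbols, where the tables lacked them, and positions came from the GENCODE annotation of GRCm38.

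A gene was tested if 3 or more libraries (2 or more of batch 1) held 10 counts or more. The edgeR 4.0.16 quasi-likelihood test (R 4.3.3) was fitted with TMM scaling to 1 mean per group of genotype and treatment over all 24 libraries, or all 10 of batch 1, so that all groups share 1 estimate of spread. The biological coefficient of variation was 0.137 in the main set and 0.199 in batch 1. Every adjusted p in the text is from edgeR with Benjamini-Hochberg adjustment. CPM values are counts over TMM-scaled totals, and n is 3 libraries a group. The SE is the size of the log2 fold change divided by the square root of the test's F statistic. It thus rests on the spread shared by all groups of the fit. The script was tested on simulated counts.

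Members and gene lists were chosen with earlier results of these data known. Named genes are Tet2, Tet1, Tet3, Dnmt3a, Gdf3, Xlr3b, Ngp and Lck, then the 10 largest rises and 10 largest falls among called genes with at least 50 scaled counts in the higher group, libraries that do not overlap and a symbol of their own, then, for lists with at least 3 called genes, the up to 4 of lowest adjusted p, and up to 10 called in both the main set and batch 1. Other members of described lists are named for description, and some results are not reported here. Mid1, Gprc5c, Rpl34 and its copies, Tifa, Cfi, Ccdc109b, Adh7, Gm43351 and Ccl12, and the leaving out of LDL libraries with Gfap, were chosen after the values were seen.

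Alternatives were RLE and upper-quartile scaling, DESeq2 1.42.0, limma-voom (limma 3.58.1), other filters, only the groups compared, a replicate block, a minimum change of 1.5-fold and each library left out. Same-numbered Tet2KO and WT libraries did not deviate together (correlations -0.0357, 0.059 and -0.134), so the numbers were not taken as pairs.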

Additional observations from a re-analysis of the deposited data

Results flagged for a closer look

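The Tet2KO effect with LDL differed from that with vehicle, by the edgeR test of the difference itself, for 3 of the genes named in the report. The difference, LDL minus vehicle, was -0.71 on the log2 scale for Cd4 (edgeR adjusted p = 0.0276), with 12.5, 12.2 and 11.9 CPM in Tet2KO and 11.1, 9.87 and 10.2 CPM in WT with LDL. It was -2.04 for Ciita (edgeR adjusted p = 0.0276) and -1.25 for Gprc5c (edgeR adjusted p = 0.00416), where the LDL libraries held 10.5, 10.5 and 11.1 CPM in Tet2KO and 6.93, 8.41 and 9.18 CPM in WT. None of the 3 differences was called without the LDL libraries that held Gfap.

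For 11 named genes that were called with vehicle in the main set, the 3 Tet2KO and 3 WT libraries of batch 1 lay apart in the opposite direction. The difference between the sets was not tested for any of them. Of the 11, Mpo, Mrc1 and Ccl12 were called in batch 1 and the others were not. The share of all genes whose batch 1 libraries lie apart in this way is not given here, so the 11 are a description only. Among genes higher in Tet2KO in the main set, the batch 1 log2 fold change of Tet2KO over WT was -3.01 for Ctsg, -1.52 for Xlr4b, -1.21 for Mpo, -0.44 for Csf3r and -0.22 for Naip2, a flagellin sensor. Among genes lower in Tet2KO in the main set it was 2.69 for Ccl12, 1.25 for Mid1, 0.63 for Mrc1, 0.60 for Ccl2, 0.31 for Nlrp3 and 0.28 for Mcm3, a subunit of the replicative helicase. Mid1 had 13.5, 38.6 and 15 CPM in Tet2KO and 12.7, 7.95 and 7.52 CPM in WT in batch 1.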

How the results depend on the processing

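For the 158 named genes, 2426 of 2682 values over 17 alternatives kept direction and side of the threshold, 234 lost a call, 14 gained one and 8 changed sign, and 49 of 134 called genes kept the call in every alternative. The 8 were uncalled genes near 0: Dnmt3a (-0.026 with no filter, -0.00018 with filterByExpr, -0.098 to 0.086 with single libraries left out), Elane (-0.029 to 0.082), Il6 (-0.41 to 0.018) and Pf4 (-0.074 to 0.23).

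Of the calls with vehicle 135 of 1064 (12.7%) were kept under every alternative. The count was 146 with a minimum change of 1.5-fold and 643 to 830 with a library left out, and 1052 to 1090 with other scalings, filterByExpr, limma-voom or only the groups compared. It was 1388 with DESeq2 and 942 with no filter. With LDL it was 39 in a fit of only the groups compared, 288 without the libraries with Gfap and 361 to 840 with a library left out, the highest without WT LDL library 2. The difference between the LDL and vehicle effects gave 31 genes with upper-quartile scaling, 169 with DESeq2, 36 with no filter, 2 to 41 with a library left out and 0 both in a fit of only the groups compared (883 at an unadjusted p under 0.05) and without the libraries with Gfap. Against Dnmt3aKO it was 3458 in a fit of only the groups compared. In batch 1 it was 693 with DESeq2 and 70 to 249 with a library left out, the lowest without WT library 2. The causes were not tested.

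A replicate block, although the numbers do not pair the libraries, gave 1208 calls with vehicle over all 24 libraries and 615 in a fit of only the groups compared. It gave 3578 with LDL and 3210 against Dnmt3aKO in fits of only the groups compared. For the difference between the effects the block gave 40 over all 24 libraries and 0 in a fit of only the groups compared (1317 at an unadjusted p under 0.05), and in batch 1 160. With 3 libraries a group, genes of a few counts are limited by counting error, and changes of low lymphoid and granule transcripts rest on few reads.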

Other observations

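Among mast cell, basophil and progenitor genes 2 of 10 mast cell and basophil genes were higher in Tet2KO and 2 lower. Kit, the receptor for stem cell factor, had 7.98, 8.05 and 7.29 CPM in Tet2KO and 3.5, 3 and 2.96 CPM in WT (1.301 ± 0.19, edgeR adjusted p = 1.2e-04), and Prss34, a mast cell and basophil protease, 0.491, 0.476 and 0.18 CPM in Tet2KO and 0, 0.0283 and 0 CPM in WT (called, edgeR adjusted p = 0.00251). Hdc, which makes histamine, had 0.852, 0.516 and 0.902 CPM in Tet2KO and 2.35, 2.69 and 1.42 CPM in WT (-1.46 ± 0.24, edgeR adjusted p = 4.0e-04), and Gata2, a transcription factor of stem and mast cells, 1.03, 1.59 and 1.03 CPM in Tet2KO and 2.46, 2.23 and 2.41 CPM in WT (-0.99 ± 0.23, edgeR adjusted p = 0.0102), a call lost without Tet2KO library 1 or 3. The 4 genes lay apart between the groups, 2 in each direction.

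Genes differed by transcript length as well. Tested genes sorted into 5 equal groups by length had median log2 fold changes of -0.07, -0.08, -0.04, 0.01 and 0.08 from the shortest to the longest, and of 79 ribosomal protein genes 1 was lower and 0 higher in Tet2KO, at a median of -0.18. On the Y chromosome 4 of 14 tested genes were called (28.6%, beside 5.47% of all genes), Mid1-ps1 among them.

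Promoters of the 280 genes called higher that have 1 RefSeq promoter held a median of 6 CG dinucleotides, against 14 for the 327 called lower and 15 for all tested genes with 1 promoter. These medians are a description of the sequence, with no test.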
